A study of Homo sapiens with 9 samples.

Results

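The genes described here are the 5 subunits of the transcription factor NF-κB (*NFKB1*, *NFKB2*, *REL*, *RELA* and *RELB*) and 5 genes that NF-κB is known to induce and that act back on its pathway or on cell survival (*NFKBIA*, *NFKBIE*, *TNFAIP3*, *BIRC3* and *TRAF1*). They were picked by gene symbol out of the 60708 genes in the count files, all 10 were found, and all 10 passed the filter on low counts in every fit. Expression was measured by RNA sequencing in 9 libraries labelled as MDA-MB-231, an established human breast cancer line of the basal, triple-negative type. Of the libraries, 3 were labelled WT, and 3 each came from the clones CS16 and CS19, which were labelled as *SNAI1* knockouts. *SNAI1* encodes a repressor that drives epithelial-mesenchymal transition. The clones were made with CRISPR/Cas9 guides directed at the exons of *SNAI1* and an exon-intron boundary, together with repair donor plasmids and puromycin selection. Each clone was grown from a single cell, so that a clone is 1 cell line and its 3 libraries are not independent knockouts. No group was treated with a cytokine or another agent, and all groups were kept in the same serum-containing medium. The comparison asks how the transcripts of this pathway differed between the libraries labelled *SNAI1*-KO and those labelled WT.

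NF-κB proteins work as dimers. In the canonical pathway, RELA or REL pairs with p50, the product of *NFKB1*, and is held in the cytoplasm by IκB proteins until the IKK complex, switched on by TNF, IL-1 or Toll-like receptors, marks the IκB for destruction. In the non-canonical pathway, receptors such as the lymphotoxin β receptor and CD40 stabilise the kinase NIK, which leads to the processing of the *NFKB2* product p100 to p52, the partner of RELB. Several members of the pathway are themselves target genes. IκBα (*NFKBIA*) and IκBε (*NFKBIE*) take NF-κB back out of the nucleus, A20 (*TNFAIP3*) edits ubiquitin chains upstream of IKK, and cIAP2 (*BIRC3*) and *TRAF1* take part in TNF receptor complexes and restrain cell death. Basal breast cancer lines are known for constitutive NF-κB activity.

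On GRCh38, the subunit genes lie on chromosome 4 from 102501331 to 102617302 (*NFKB1*, plus strand), chromosome 10 from 102394110 to 102402524 (*NFKB2*, plus strand), chromosome 2 from 60881521 to 60931612 (*REL*, plus strand), chromosome 11 from 65653597 to 65663090 (*RELA*, minus strand) and chromosome 19 from 45001449 to 45038198 (*RELB*, plus strand). *NFKBIA* lies on the minus strand of chromosome 14 from 35401513 to 35404749, *NFKBIE* on the minus strand of chromosome 6 from 44258166 to 44265788, and *TNFAIP3* on the plus strand of the same chromosome from 137867214 to 137883312. *BIRC3* lies on the plus strand of chromosome 11 from 102317450 to 102339403, and *TRAF1* on the minus strand of chromosome 9 from 120902393 to 120929173. The counts cover the exons of each gene, whose summed length ran from 2371 bases in *NFKBIA* to 13172 bases in *REL*. Of the exon bases of *REL*, 5702 (43.3%) also belong to an annotated gene on the same strand (ENSG00000267520) that had 0 counts in every library. Read pairs within shared bases are assigned to neither gene, so the level of *REL* is understated in all groups alike. Antisense or divergent transcripts overlapped 85 exon bases of *RELA*, 95 of *TNFAIP3* and 126 of *BIRC3*, at most 1.89% of their exons, and strand was not used in the counting.

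NF-κB dimers bind the κB element, and the reference promoters were searched for it as a description of the members. The κB consensus searched was GGG, a purine, 2 bases of any kind, 2 pyrimidines and CC, on both strands, within 250 bases upstream of each RefSeq start site of GRCh38.p14. Promoters were held for 8 of the 10 members, at 14 start sites, and *NFKB1*, *NFKB2*, *REL*, *NFKBIA*, *TNFAIP3* and *BIRC3* had a match, whereas *RELA* and *TRAF1* had none in this window. Matches were found in 7 of the 14 member promoters (50%), against 3498 of all 35116 promoters searched (9.96%). The members include genes picked as known NF-κB targets, so the larger share can follow from that choice alone. Whether a match goes with the direction of change was not tested. *NFKB1*, *NFKB2*, *NFKBIA*, *TNFAIP3* and *BIRC3* had a match and fell, and *REL* had a match and rose. *RELA* and *TRAF1* had none and fell. Such a match says that the letters are present in the window, and binding was not measured. The first 4 sequences are shown because *BIRC3*, *NFKBIA* and *TNFAIP3* are feedback genes with matches, of which *BIRC3* fell far more than the other two, and because *NFKB1*, which also holds a match, differed least. Each is written 5′ to 3′ along the strand of its gene, ends at or before the start site, and has the matches in capitals, which read as the reverse complement of the consensus where the match is on the other strand. *NFKBIA* covers chr14:35404750-35404999 (minus strand), *BIRC3* chr11:102317234-102317449 (plus strand), *TNFAIP3* chr6:137867009-137867213 (plus strand) and *NFKB1* chr4:102501109-102501330 (plus strand).
NFKBIA: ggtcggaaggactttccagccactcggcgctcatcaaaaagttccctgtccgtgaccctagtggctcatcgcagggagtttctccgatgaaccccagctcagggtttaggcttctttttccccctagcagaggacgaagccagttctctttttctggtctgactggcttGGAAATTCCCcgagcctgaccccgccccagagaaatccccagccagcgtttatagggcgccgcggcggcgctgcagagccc
BIRC3: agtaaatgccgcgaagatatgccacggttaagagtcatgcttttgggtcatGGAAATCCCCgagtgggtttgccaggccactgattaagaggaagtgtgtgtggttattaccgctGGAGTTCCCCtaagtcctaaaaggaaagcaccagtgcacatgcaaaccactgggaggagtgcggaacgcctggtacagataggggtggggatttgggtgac
TNFAIP3: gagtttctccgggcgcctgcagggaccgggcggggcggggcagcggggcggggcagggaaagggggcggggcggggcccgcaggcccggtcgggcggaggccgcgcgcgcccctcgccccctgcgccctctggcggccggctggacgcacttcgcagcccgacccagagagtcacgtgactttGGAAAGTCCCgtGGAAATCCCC
NFKB1: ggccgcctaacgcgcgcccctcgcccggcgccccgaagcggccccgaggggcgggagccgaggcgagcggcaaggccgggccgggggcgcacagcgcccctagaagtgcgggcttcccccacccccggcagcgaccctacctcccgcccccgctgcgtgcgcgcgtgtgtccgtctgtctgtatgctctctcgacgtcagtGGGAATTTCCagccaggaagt

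*NFKB2* had matches upstream of 2 start sites, at positions 102394578 and 102395705, and *REL* had matches on both strands that overlap by all but 1 base at each end. These are shown in 30-base windows because *REL* was the one subunit that rose and *NFKB2* the subunit with matches that fell most. All lie on the plus strand of GRCh38.p14, the *NFKB2* windows at chr10:102394462-102394491, chr10:102394490-102394519, chr10:102395519-102395548 and chr10:102395674-102395703, and the *REL* window at chr2:60881518-60881547. The capitals again mark the matches.
NFKB2 window 1: aaacgtcatGGGAATTCCCCcctccggggg
NFKB2 window 2: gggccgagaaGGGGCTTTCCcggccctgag
NFKB2 window 3: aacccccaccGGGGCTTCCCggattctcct
NFKB2 window 4: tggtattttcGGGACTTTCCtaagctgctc
REL: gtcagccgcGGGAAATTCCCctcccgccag

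The libraries held between 19527195 and 28627777 counted read pairs. *SNAI1* was not lower in the libraries labelled as knockouts. It had 16, 38 and 21 counts in WT-1 to WT-3, 26 to 49 in the libraries labelled CS16 and 57 to 94 in those labelled CS19. The difference did not pass (log2 fold change 0.89, standard error 0.42, Benjamini-Hochberg adjusted p = 0.0838, edgeR quasi-likelihood test). The counts thus showed no loss of *SNAI1* RNA, so every direction given here is between labels. For the clones, the paper reports no detectable SNAI1 protein, lower RT-qPCR signal at each *SNAI1* exon and deletions within the gene seen in the reads. Those measurements were not repeated here. WT-2 was unlike the other WT libraries: a chi-square test of its counts gave 188 and 230 per degree of freedom against WT-1 and WT-3, which differed from each other by 14.6. The marker check also differed between the labels. It used 6 genes listed as present in a basal triple-negative breast line (*VIM*, *CD44*, *EGFR*, *KRT8*, *KRT18* and *S100A6*). They are not all basal markers, and the paper lists *KRT8* as luminal. Their sum was 6392 to 9054 CPM (TMM-normalised counts scaled to a common library size) in WT and 386 to 420 CPM in both clones. *S100A6* had the largest mean in WT, at 4348 CPM, and the mean of each of the 6 genes was lower in both clones. *CD44* and *S100A6* were at 2 counts or fewer in each clone library. *CDKN2A*, *CDKN2B* and *MTAP*, from a stretch of chromosome 9 that MDA-MB-231 is known to have lost, were at 0 in WT and summed to 164 to 182 CPM in the clones. These values go against the label of the 6 clone libraries as MDA-MB-231, so those libraries may not be of this line, and they are called clones here only after their labels. The summed level of 9 genes of embryonic kidney was 74.8 to 112.2 CPM in WT and 132 to 152 CPM in the clones, with *SALL1* at 0 in WT and at 350 to 542 counts in the clones, and *PAX8* at 202 to 452 counts in WT and at most 2 in the clones. For 5 fibroblast and stromal genes the sums were 16.8 to 46.6 CPM and 4.49 to 7.46 CPM. The hormone receptor genes *ESR1* and *PGR* were at 9 counts or fewer in every library, and *ERBB2*, which encodes HER2, was at 1700 to 3442 counts in WT and 1532 to 2482 in the clones. Of the blood cell markers, *MS4A1* was at 0 throughout. The part of these differences in the results below was not tested, and a change that goes with the *SNAI1* label cannot be told apart from another difference between the cells that carry the labels.

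In the libraries labelled *SNAI1*-KO, 9 of the 10 members were lower than in WT and 1, *REL*, was higher, each with an adjusted p below 0.05. *BIRC3* fell most, by 183-fold, followed by *RELB*, *TRAF1*, *NFKB2* and *NFKBIE*, which fell by between 5.08-fold and 17.9-fold. *NFKBIA*, *TNFAIP3* and *RELA* fell by between 2.24-fold and 2.96-fold, and *NFKB1* by 1.32-fold. Among all 19631 genes tested, 32.6% were lower and 31.1% were higher at the same adjusted p. The 5 members with the deepest falls also passed a log2 fold change of -2, which 14.3% of all genes did. The median log2 fold change was -1.96 over the 10 members and -0.00 over all genes. For each member, all 6 libraries labelled *SNAI1*-KO lay outside the range of the 3 WT libraries. The share of all genes with such a separation was not counted, so this only describes the values. Each test was a quasi-likelihood test in edgeR whose p was adjusted over all genes. In bulk samples, fewer cells of a type and less RNA per cell cannot be told apart. Nothing in the labels says that the libraries of a group came from separate cultures, so the p-values measure the spread between these libraries only.

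**Figure D1:**
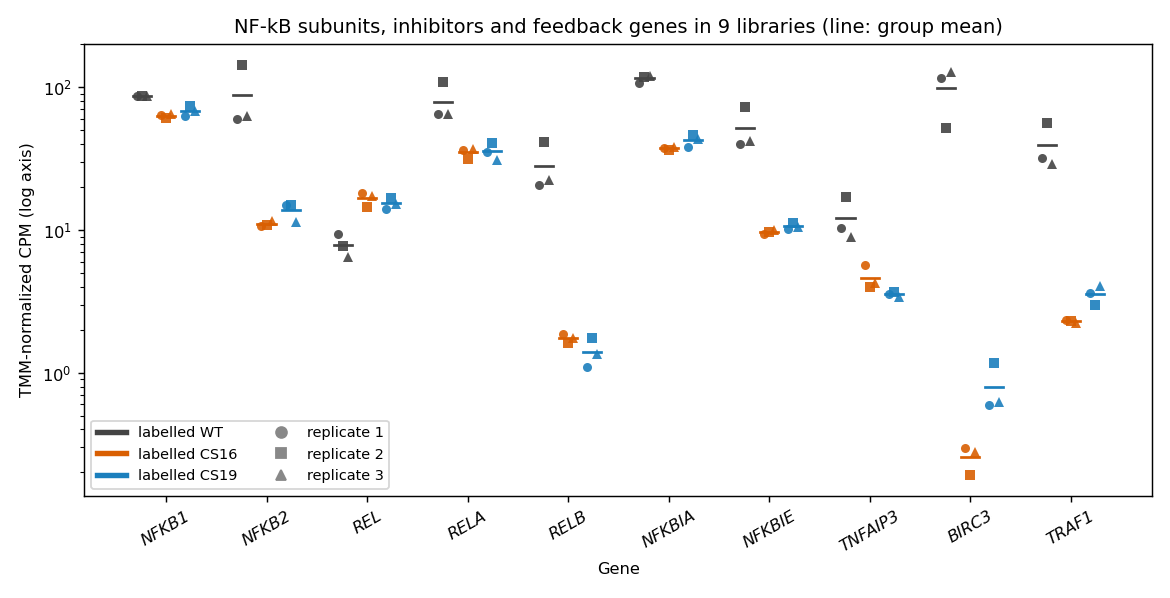
TMM-normalised expression of the 10 genes in each library, in CPM on a log axis, with 1 symbol per library, shape giving the replicate number and a line at the group mean. *BIRC3* spans 0.191 to 127 CPM, *REL* is the one gene whose clone libraries all lie above WT, and WT-2 (square) stands above the other WT libraries in *NFKB2*, *RELA*, *RELB*, *NFKBIE*, *TNFAIP3* and *TRAF1* and below them in *BIRC3*.

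Of the canonical subunits, *NFKB1* changed least. Its normalised expression was 86.6, 86.3 and 87.6 CPM in WT-1 to WT-3, 63.7, 60.8 and 65.3 CPM in the CS16 libraries, and 62.9, 73.7 and 68.0 CPM in the CS19 libraries. The WT libraries lay close together and above every clone library. The log2 fold change was -0.40 (standard error 0.12, Benjamini-Hochberg adjusted p = 0.00986, edgeR quasi-likelihood test), and without the filter on low counts it was -0.29 and no longer passed (adjusted p = 0.189 in edgeR). Against WT alone, CS16 was lower by 0.43 on the log2 scale (adjusted p = 0.0436), whereas the difference of CS19 did not pass, at -0.31 with a 95% interval from -0.68 to 0.07 (adjusted p = 0.144, both in edgeR).

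*RELA*, which carries the main transactivation domain of the canonical dimer, was at 64.9, 108 and 65.0 CPM in WT, at 36.6, 31.7 and 36.9 CPM in CS16 and at 35.3, 40.9 and 31.2 CPM in CS19. The groups did not overlap, and the clones lay close to each other. *RELA* fell in the libraries labelled *SNAI1*-KO (log2 fold change -1.16, standard error 0.18, Benjamini-Hochberg adjusted p = 0.000138, edgeR quasi-likelihood test).

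*REL* (c-Rel), best known from lymphocytes, moved the other way. It was at 9.34, 7.78 and 6.43 CPM in WT, at 18.2, 14.6 and 17.3 CPM in CS16 and at 14.1, 16.8 and 15.2 CPM in CS19. Every clone library exceeded every WT library, and the rise was of like size in both clones. The log2 fold change was 1.03 (standard error 0.18, Benjamini-Hochberg adjusted p = 0.000345, edgeR quasi-likelihood test), with 1.12 for CS16 and 1.01 for CS19. *PTPRC*, the pan-leukocyte marker, had 5 to 8 counts in WT and at most 2 in the clones, and the part of blood cell markers in this result was not tested.

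The 2 subunits of the non-canonical pathway fell further. *NFKB2* was at 59.7, 144 and 62.8 CPM in WT, at 10.7, 10.8 and 11.6 CPM in CS16 and at 14.9, 14.9 and 11.3 CPM in CS19. *RELB*, its usual partner, was at 20.5, 41.6 and 22.3 CPM in WT, at 1.87, 1.63 and 1.75 CPM in CS16 and at 1.09, 1.74 and 1.34 CPM in CS19. WT-2 held the highest value of both genes, and the lowest WT library was still several times above the highest clone library. The log2 fold change was -2.85 for *NFKB2* (standard error 0.26, adjusted p = 2.25e-06) and -4.16 for *RELB* (standard error 0.26, adjusted p = 7.08e-08), both in edgeR. Without WT-2 they were -2.31 and -3.77.

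The make-up of the NF-κB pool at the transcript level shifted with these changes. Counts were divided by exon length, and each subunit was expressed as a share of the 5. *NFKB2* and *RELB* together made up 42.6%, 56.7% and 44.2% of subunit transcripts in WT-1 to WT-3. In the CS16 libraries they made up 13.7%, 14.7% and 14.2%, and in the CS19 libraries 16.8%, 15.5% and 13.9%. The mean share thus was 47.8% ± 7.70 (SD, n = 3) in WT and 14.8% ± 1.18 (SD, n = 6) in the libraries labelled *SNAI1*-KO, a difference of -33.0 percentage points (two-sided exact permutation test, p = 0.0238, the smallest that this test gives for 84 arrangements). For either clone alone the difference was -33.6 points (CS16) and -32.4 points (CS19), each with an exact permutation p of 0.1, below which 3 libraries against 3 cannot go. The clone libraries come from only the lines CS16 and CS19, and this test was chosen with earlier results of these data known. Its p-values thus describe these libraries and not the knockout label. *NFKB1* took the largest share in the clones, 48.8% ± 1.92 (SD, n = 6) against 25.5% ± 7.10 (SD, n = 3) in WT. *RELA* made up 30.6% ± 1.44 against 25.6% ± 0.414, and *REL* 5.76% ± 0.542 against 1.12% ± 0.405. With the length of *REL* counted without the bases it shares with the other gene, a setting chosen after seeing the data, *REL* made up 9.72% of subunit transcripts in the clones and 1.95% in WT. Because shares sum to a whole, a larger share of *NFKB1* or *RELA* stands beside a lower level of both genes.

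**Figure D2:**
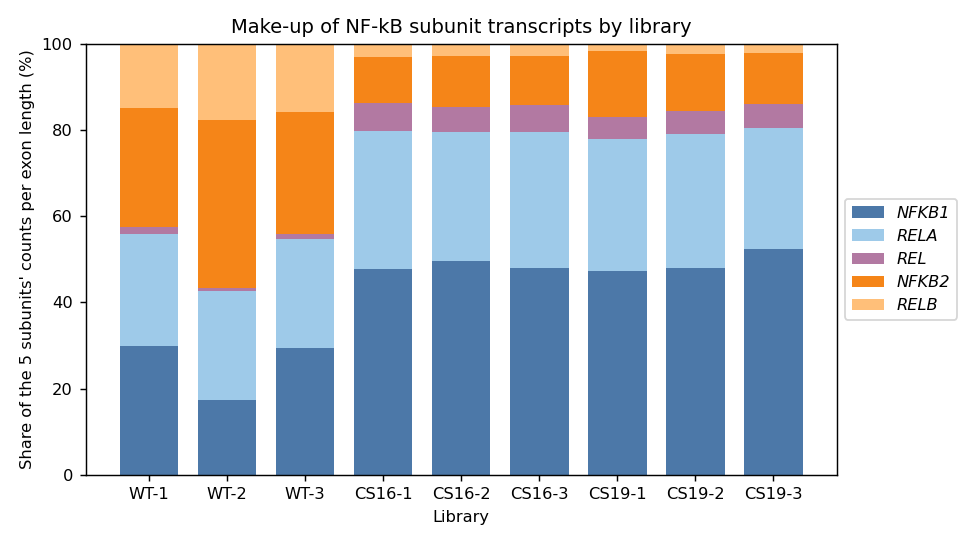
Each bar is 1 library and shows the share (%) of the 5 subunits in their summed counts per exon length. The orange part, *NFKB2* and *RELB*, takes 42.6% to 56.7% in the WT libraries and 13.7% to 16.8% in the clone libraries, while *NFKB1* takes 17.3% to 29.8% and 47.2% to 52.4%.

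Among the inhibitors, *NFKBIA* (IκBα), a gene quickly induced by NF-κB that ends its response, was at 107.2, 118.2 and 120.6 CPM in WT, at 37.9, 36.2 and 38.02 CPM in CS16 and at 38.2, 46.0 and 43.1 CPM in CS19. Replicates of each group lay close together, WT-2 included, and the groups were far apart. *NFKBIA* had a log2 fold change of -1.53 (standard error 0.12, Benjamini-Hochberg adjusted p = 7.2e-07, edgeR quasi-likelihood test). *NFKBIE* (IκBε), a slower inhibitor that also holds REL and RELA, was at 40.3, 72.3 and 42.3 CPM in WT and between 9.43 and 11.2 CPM in the 6 clone libraries. Its log2 fold change was -2.34 (standard error 0.19, Benjamini-Hochberg adjusted p = 6.1e-07, edgeR quasi-likelihood test).

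Set against *RELA* per exon length, the inhibitors moved unequally. The ratio of *NFKBIE* to *RELA* was 1.31 to 1.41 in WT, 0.545 to 0.644 in CS16 and 0.580 to 0.7102 in CS19, without overlap. The ratio of *NFKBIA* to *RELA* was 3.80, 2.51 and 4.27 in WT and 2.38 to 3.19 in the clones, which overlapped through WT-2. *TNFAIP3* per *RELA* was 0.149 to 0.172 in WT and 0.0981 to 0.168 in the clones, again with overlap.

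*TNFAIP3* (A20), the deubiquitinase that shuts off signalling from TNF receptors, was at 10.3, 17.1 and 8.90 CPM in WT, at 5.65, 3.97 and 4.26 CPM in CS16 and at 3.55, 3.69 and 3.38 CPM in CS19. The groups did not overlap, and CS19 varied less than CS16. Its log2 fold change was -1.57 (standard error 0.24, Benjamini-Hochberg adjusted p = 0.000142, edgeR quasi-likelihood test). Without WT-2 it was -1.24.

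The 2 genes tied to survival also fell. *BIRC3*, which had the largest fold change of the members, was at 115.5, 52.2 and 127.3 CPM in WT (2337, 913 and 2476 counts), at 0.295, 0.191 and 0.279 CPM in CS16 (6, 4 and 7 counts) and at 0.592, 1.17 and 0.623 CPM in CS19 (13, 27 and 19 counts). WT-2 held the lowest WT level here, unlike in *NFKB2* and *RELB*, and was still far above every clone library. The log2 fold change was -7.52 with a 95% interval from -8.50 to -6.54 (Benjamini-Hochberg adjusted p = 5.37e-08, edgeR quasi-likelihood test), and the clone values rest on few counts. *BIRC2*, the neighbouring gene that encodes cIAP1 and belongs to the adaptor list below, fell less and is named after its values were seen, with 179.6 ± 82.7 CPM in WT (SD, n = 3) against 69.4 ± 3.93 CPM in the clones (SD, n = 6). *TRAF1*, an adaptor that joins TRAF2 and the cIAPs, was at 31.8, 56.5 and 29.2 CPM in WT, at 2.36, 2.29 and 2.23 CPM in CS16 and at 3.60, 3.00 and 4.07 CPM in CS19. The 2 clones did not overlap each other in either gene, nor in *NFKBIA*, *NFKBIE* or *TNFAIP3*. Between the clones, *NFKBIA*, *NFKBIE* and *TNFAIP3* did not pass an adjusted p of 0.05. The share of all genes so separated was not counted, so this only describes the values. *TRAF1* had a log2 fold change of -3.74 (standard error 0.26, Benjamini-Hochberg adjusted p = 2.2e-07, edgeR quasi-likelihood test).

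The order of the members, as CPM per kilobase of exon, changed between the groups. In WT, *NFKBIA* stood first at 48.7 ± 3.03 CPM per kilobase, followed by *NFKBIE* at 20 ± 6.93, *NFKB2* at 18.9 ± 10.2, *RELA* at 14.5 ± 4.58, *NFKB1* at 13.7 ± 0.107, *BIRC3* at 13.1 ± 5.37, *RELB* at 9.33 ± 3.87 and *TRAF1* at 8.75 ± 3.37 CPM per kilobase (SD, n = 3 each). The ranges of neighbours from *NFKBIE* to *TRAF1* overlapped, so the order within that stretch is not resolved. *TNFAIP3* at 2.41 ± 0.875 and *REL* at 0.596 ± 0.111 CPM per kilobase closed the order. In CS16 the first 3 were *NFKBIA* (15.7 ± 0.430 CPM per kilobase), *NFKB1* (9.95 ± 0.357) and *RELA* (6.42 ± 0.533), and in CS19 the same 3 genes stood first with 17.9 ± 1.67, 10.7 ± 0.851 and 6.55 ± 0.894 CPM per kilobase. *NFKBIE* and *NFKB2* came next in both clones, at 3.75 ± 0.0960 and 2.34 ± 0.107 CPM per kilobase in CS16 and at 4.12 ± 0.195 and 2.91 ± 0.444 in CS19. *REL*, last of 10 in WT, was sixth in both clones at 1.27 ± 0.143 and 1.17 ± 0.103 CPM per kilobase, above *RELB* at 0.580 ± 0.0400 and 0.461 ± 0.108. *BIRC3* was last in both, at 0.0339 ± 0.00742 and 0.106 ± 0.0434 CPM per kilobase. The only neighbours whose ranges overlapped in the clones were *REL* and *TNFAIP3* in CS16 and *TRAF1* and *TNFAIP3* in CS19. This order used the full exon length of *REL*, including the bases shared with the other gene, which understates its level. Which neighbours *REL* overlaps thus depends on the length used.

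The spread within WT was itself uneven over the members. Compared with the mean of WT-1 and WT-3, WT-2 was 2.36-fold higher in *NFKB2*, 1.94-fold in *RELB*, 1.85-fold in *TRAF1*, 1.78-fold in *TNFAIP3*, 1.75-fold in *NFKBIE* and 1.67-fold in *RELA*, and 2.32-fold lower in *BIRC3*. *NFKB1*, *REL* and *NFKBIA* differed by at most 1.04-fold. Thus 7 of 10 members were beyond 1.5-fold in this 1 library, against 56.2% of the 19631 genes tested, and no test was made on a single library.

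Each clone was then set against WT in a separate fit. In CS16, 9 members fell and 1 rose at an adjusted p below 0.05, where 28.6% of 18611 genes tested were lower and 27% higher, and 5 members also passed a log2 fold change of -2, as did 15.3% of all genes. In CS19, 8 members fell, 1 rose and *NFKB1* did not pass, where 26.6% of 18935 genes were lower and 26.3% higher, and 5 members passed a log2 fold change of -2, as did 14.4% of all genes. The 5 were *NFKB2*, *RELB*, *NFKBIE*, *BIRC3* and *TRAF1* in both clones. The values, in the order CS16 then CS19, were log2 fold changes of -2.99 and -2.66 for *NFKB2*, -3.98 and -4.29 for *RELB*, -2.39 and -2.24 for *NFKBIE*, and -1.15 and -1.11 for *RELA*. *NFKBIA* stood at -1.60 and -1.40, and *TNFAIP3* at -1.36 and -1.73. Both comparisons use the same 3 WT libraries, so their likeness is not independent evidence.

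**Figure D3:**
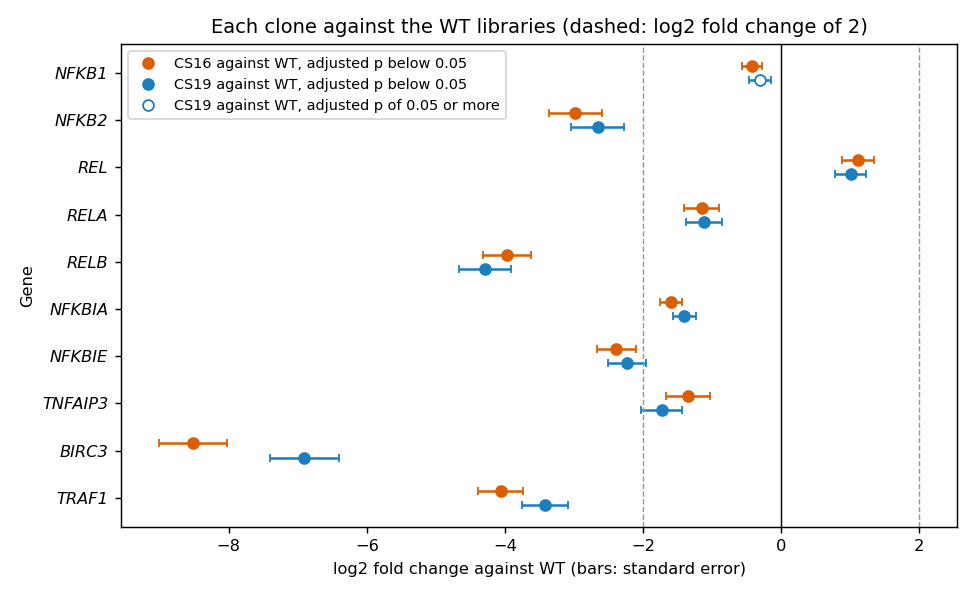
Log2 fold changes of each clone against the WT libraries, with bars for the standard error, filled points for an adjusted p below 0.05 and dashed lines at a log2 fold change of 2 in either direction. *NFKB1* in CS19 is the one open point, at -0.31, and *BIRC3* shows the widest gap between the clones, with -8.52 in CS16 and -6.91 in CS19.

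The clones were therefore compared with each other directly. *BIRC3* was lower in CS16 than in CS19 (log2 fold change -1.61, 95% interval from -2.54 to -0.67, adjusted p = 0.0138), and so was *TRAF1* (-0.64, 95% interval from -1.06 to -0.23, adjusted p = 0.0232), both in edgeR. Among all 17538 genes tested between the clones, 27.4% differed in either direction, so 2 of 10 members is no more than the background. DESeq2 passed neither gene, and with both cut-offs no member was called, although 5 of the 10 had an unadjusted p below 0.05. The 95% intervals of the other members between CS16 and CS19 were -0.27 to 0.04 for *NFKB1*, -0.58 to -0.05 for *NFKB2*, -0.12 to 0.34 for *REL*, -0.25 to 0.19 for *RELA* and -0.21 to 0.86 for *RELB*. For the inhibitors they were -0.36 to -0.01 for *NFKBIA*, -0.36 to 0.08 for *NFKBIE* and 0.00 to 0.76 for *TNFAIP3*. None of these 8 passed the adjusted threshold, and differences up to the ends of these intervals remain possible.

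The other genes of the pathway were counted in lists by role, in the libraries labelled *SNAI1*-KO against WT. Beside every list count stands the share of all 19631 genes tested, of which 32.6% were lower and 31.1% higher. Of 15 receptors, all tested, 13 fell, 0 rose and 2 did not pass (median log2 fold change -3.84). The lymphotoxin β receptor gene *LTBR*, the entry to the non-canonical pathway, had 1173 to 1657 counts in WT and 0 in all 6 clone libraries, and the floor of 3 counts per library, on average 0.129 CPM there, makes it at least 554-fold lower. *TLR4* likewise had 174 to 476 counts in WT and 0 in the clones, at least 140-fold lower. *TLR2* had 245 to 485 counts in WT and 2 in all in the clones, and *TLR3* 101 to 233 and 4 in all. Both bounds allow for counting error alone, as molecules were not tagged before amplification. *TNFRSF12A*, the receptor of TWEAK, and *TLR6* had log2 fold changes of -4.74 and -3.32. *CD40*, a receptor of the non-canonical pathway named after its values were seen, also fell, with 27.7 ± 1.65 CPM in WT (SD, n = 3) and 5.40 ± 0.425 CPM in the clones (SD, n = 6).

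Of 9 ligands, 4 had enough counts to be tested and all 4 fell. *IL1A* and *IL1B* had log2 fold changes of -3.31 and -3.75, and *TNFSF12*, which encodes TWEAK, had 25 to 163 counts in WT and 11 in all in the clones. *LTB*, the fourth, named after its values were seen, fell by 2.39 on the log2 scale. *TNF* itself, named as the best known ligand, was at 0 to 4 counts in WT and at most 3 in the clones, so a difference was not detectable at this depth.

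Of 26 adaptors and kinases, 18 fell, 2 rose and 6 did not pass (median log2 fold change -0.82). *MAP3K7*, which encodes TAK1, and its partner *TAB1* rose, with log2 fold changes of 1.21 and 1.19. *IKBKE*, an IKK-related kinase, stood at a log2 fold change of -8.05, *MYD88*, the adaptor of IL-1 and Toll-like receptors, at -6.62, and *RIPK1*, the kinase of the TNF receptor complex, at -1.75. *MYD88* spread widely within WT, at 22 ± 18.7 CPM (SD, n = 3) against 0.216 ± 0.123 CPM in the clones (SD, n = 6). The genes of the IKK complex and *MAP3K14*, named after their values were seen, were uneven. *MAP3K14*, which encodes NIK, fell by 4.13 on the log2 scale, and *IKBKG* and *IKBKB* had log2 fold changes of -1.44 and -0.88. *MAP3K14* was at 66.9 ± 54.4 CPM in WT (SD, n = 3) and 3.82 ± 0.471 CPM in the clones (SD, n = 6). *CHUK*, the IKK subunit that acts on p100, did not pass, with a mean of 120.3 ± 10.9 CPM for CS16, 109.7 ± 4.38 CPM for CS19 and 86.2 ± 35.7 CPM for WT (SD, n = 3 each, Benjamini-Hochberg adjusted p = 0.144, edgeR quasi-likelihood test).

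Of 17 other IκB proteins and negative regulators, 16 were tested, 9 fell and 7 did not pass (median log2 fold change -0.76). *BCL3*, a nuclear IκB that joins p50 and p52, stood at a log2 fold change of -4.74, *TNIP1*, which works with A20, at -2.59 and *NFKBIZ* at -2.17. Of 25 other target genes, 19 were tested, 17 fell and 2 did not pass (median log2 fold change -5.52, or -5.36 with genes at the floor set to their bound). *PLAU*, the urokinase gene, stood at a log2 fold change of -8.53, *TNFAIP2* at -7.11 and *GADD45B* at -3.77. The cytokine gene *IL6* had 129 to 248 counts in WT and 3 in all in the clones, *VCAM1* 105 to 245 and 3 in all, *CSF2* 90 to 139 and 0 (at least 43.9-fold lower), and *CXCL1* 27 to 57 and 0 (at least 17.5-fold lower). *CCL2*, at 10 to 16 counts in WT, had 3 in all in the clones, and *CCL5*, at 4 to 17, had 5 in all. The lists were chosen with earlier results of these data known, so that these counts describe them and are no independent support for a direction.

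In CS16 alone, 13 receptors, 4 ligands, 15 adaptors and kinases, 8 IκB proteins and negative regulators and 17 target genes fell, and in CS19 alone the counts were 13, 4, 13, 8 and 17. Of all genes tested, 28.6% were lower in CS16 and 26.6% in CS19. Between the clones, *CFLAR* and *LIF* among the targets were lower in CS16 (log2 fold changes of -0.60 and -1.66), and *IER3* and *IRF1* were higher (0.78 and 0.46), named after their values were seen. Also past the threshold were *TRADD*, *TAB2*, *TNIP1* and *OTULIN*, higher in CS16, and *TRAF5*, lower in CS16. These came from 12 target genes, 24 adaptors and kinases and 16 negative regulators tested between the clones, and no receptor or ligand passed. Among all 17538 genes tested between the clones, 27.4% differed in either direction, so these genes do not mark the pathway out.

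**Figure D4:**
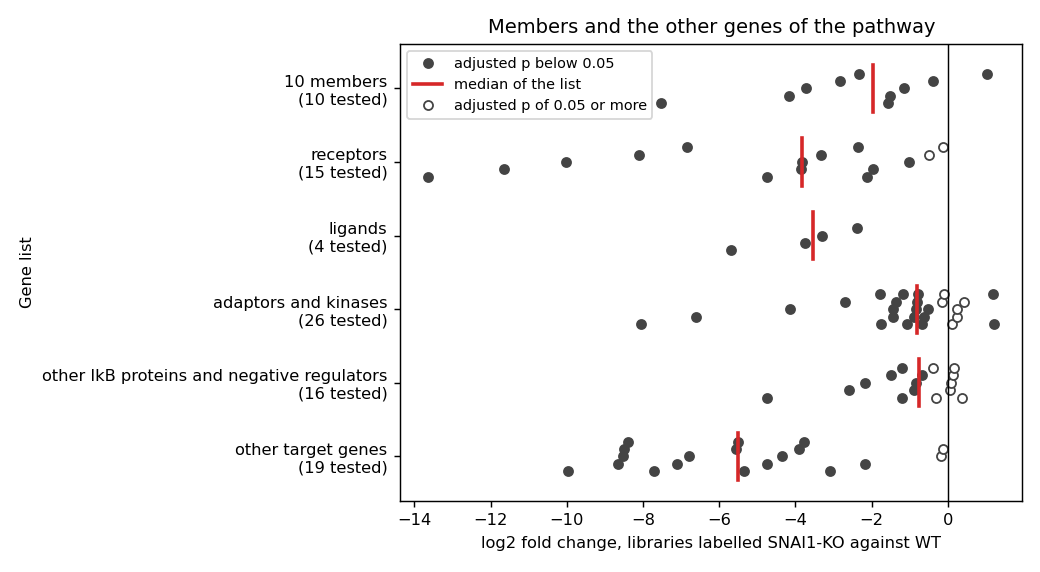
Log2 fold changes of the libraries labelled *SNAI1*-KO against WT for the 10 members and the 5 lists, with 1 point per tested gene, filled where the adjusted p was below 0.05, and a red line at each median. Medians run from -0.76 for other IκB proteins and negative regulators to -5.52 for other target genes, and *REL*, *MAP3K7* and *TAB1* are the filled points to the right of 0.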

How the data were processed

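The authors extracted total RNA from untreated cells, depleted ribosomal RNA, made stranded paired-end libraries, removed adapters with Trimmomatic 0.36, mapped reads to GRCh38 with STAR 2.7.2b and summed read pairs per gene with featureCounts of Subread 2.0.0 on gencode release 38, with a minimum mapping quality of 30 and without strand. The authors deposited raw counts, 1 file per library. The low mapping-quality pairs left out can lower genes with near-identical copies.

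Libraries were grouped by their labels. Symbols and exons came from the annotation by gene identifier, and 60463 of 60708 genes had a symbol. The identifier of *SOD2*, on the target list, was not matched, so it was not analysed here. The list of blood cell markers is reported here only in part. Counts were fitted in R 4.3.3 with edgeR 4.0.16 (filterByExpr, TMM, quasi-likelihood test, Benjamini-Hochberg adjustment over all genes tested). "Rose" or "fell" needed an adjusted p below 0.05, and a call also needed an absolute log2 fold change of 2 or more. All 6 libraries labelled *SNAI1*-KO were compared with WT, then each clone with WT and the clones with each other. Shares were compared with an exact permutation test (scipy 1.17.1). The edgeR step was tested on simulated data. Other tools were limma 3.58.1, DESeq2 1.42.0, Python 3.11.15, pandas 2.3.3, numpy 2.4.6 and matplotlib 3.10.9. Alternatives were DESeq2, RLE and upper-quartile normalisation, other filters and fold cut-offs, a replicate block, a shared fit and leaving out each library. Promoter sequences came from RefSeq (GRCh38.p14). No replicate pair was within sampling noise.

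The members, gene lists and tests were chosen with earlier results of these data known. Named genes were all members, up to 3 per direction and list with the smallest p, genes at or below 3 counts throughout a group, *SNAI1* and the markers. Others are marked as named after their values were seen.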

Additional observations from a re-analysis of the deposited data

Results flagged for a closer look

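The effect of the clone label differed between CS16 and CS19 in 2 members. *BIRC3* was lower in CS16, with a log2 fold change between the clones of -1.61, and so was *TRAF1*, with -0.64. Among all genes tested between the clones, 27.4% differed in either direction. In both genes the 3 CS16 libraries lay below the 3 CS19 libraries. The clones were also apart in *NFKBIA* and *NFKBIE* (lower in CS16) and *TNFAIP3* (higher in CS16), which did not pass, and the share of all genes so separated was not counted. The *BIRC3* values rest on 4 to 27 counts per library. The cause was not tested. None of the 11 groups of 6 libraries held a library far from the others by Dixon's criterion, which chance meets in about 1 of 20 groups.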

How the results depend on the processing

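All 10 members kept their direction and their side of an adjusted p of 0.05 in the libraries labelled *SNAI1*-KO against WT under DESeq2, RLE, upper quartile, the filter of 10 counts, the replicate block, the shared fit and without any 1 library, and the exception was *NFKB1* without the filter (adjusted p = 0.189, edgeR). With no fold cut-off, called members went from 5 to 10 for *SNAI1*-KO and for CS16, to 9 for CS19, and from 0 to 2 between the clones. With a log2 fold change of at least 1 they numbered 9 for *SNAI1*-KO, CS16 and CS19, and 1 between the clones. The share of all genes at that cut-off was not counted, so these numbers cannot be set against a background. In CS19, 4 members were called without WT-2. *NFKB1* in CS16 did not pass under DESeq2 (adjusted p = 0.0866), without the filter (0.315, edgeR) or without any of 5 single libraries (0.0941 to 0.194, edgeR), and in CS19 it passed in the shared fit (0.0342, edgeR) and without WT-2 (0.00435, edgeR).

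Between the clones, *BIRC3* did not pass under DESeq2 (adjusted p = 0.0502), in the shared fit (0.162, edgeR) or without CS19-2 (0.070, edgeR), nor did *TRAF1* under DESeq2 (0.0696), in the shared fit (0.333, edgeR) or without CS16-1, CS16-3, CS19-1 or CS19-3 (0.0533 to 0.126, edgeR). *NFKB2* passed without CS19-3 (0.0159, edgeR). *RELA* turned from -0.03 to 0.043 without CS16-2 and 0.0809 without CS19-2, within a range of -0.117 to 0.0809 over single libraries left out. In the shared fit 318 genes were higher and 336 lower in CS16, against 2581 and 2233 otherwise, and without the filter 352 genes were called between the clones against 198, and 8662 against 5272 for *SNAI1*-KO. The cause was not tested. The difference in the *NFKB2* and *RELB* share was -33.61 points with CS16 alone, -32.37 with CS19 alone and between -35.6 and -28.57 without single libraries. Without a WT library the exact permutation p was 0.0714, the smallest it could be.

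Deviations of same-numbered replicates were only weakly correlated (-0.206 to 0.19), so the main fits did not pair the samples. With 3 libraries per group, and WT-2 unlike the other WT libraries, these correlations cannot exclude a pairing. With the replicate block *NFKB1* in CS16 stood at -0.43 (adjusted p = 0.146, edgeR), *TRAF1* between the clones at -0.63 (0.057, edgeR), and no other call of a member changed.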
